A study of Mus musculus with 10 samples.

Results

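The comparison described here set late against early weeks on a diet rich in fat and cholesterol in mouse liver. Its members were 8 of the series' 10 arrays: 4 late arrays, from weeks 12 and 21, and 4 early arrays, from weeks 1 and 4, chosen by the labelled week alone. The mice were females of the inbred strain C57BL/6J (here B6) or of the strain DBA/2J (here D2). They ate a high-fat/high-cholesterol diet, and each of the 8 arrays held liver RNA of 1 strain at 1 week. Late B6, early B6, late D2 and early D2 thus had 2 arrays each, and all of these mice had eaten the diet. The arrays from week 0, before the diet, are quoted as a level and entered no test of late against early. Each array was hybridised with equal amounts of total liver RNA pooled from 5 mice, extracted with Trizol. The labels give neither the age of the mice nor the composition of the diet. No mice kept off the diet to weeks 12 and 21 are analysed here, so weeks on diet and age cannot be told apart.

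The liver takes up dietary cholesterol and fat. When sterol is scarce in cells, the transcription factor SREBP2 switches on the genes of cholesterol synthesis and uptake. Fatty acids activate PPAR-alpha, which induces the genes that burn them, while excess cholesterol and lipid can draw in macrophages, raise interferon and acute-phase genes and lead to deposition of collagen. B6 mice are known to be prone, and D2 mice more resistant, to lesions of the arteries on diets of this kind.

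All levels below are log2 of the normalised array signal plus a small constant, and differences are late minus early on that scale, with the standard error of limma (a linear model with shared variance) after ± and 4 late and 4 early arrays. Each gene is read by 1 probe set, so that levels of different genes are not compared. Weeks served as the replicates: with 1 pool per strain and week, the spread holds the change between weeks 1 and 4 and between weeks 12 and 21 as well as that between pools and arrays. The small number of arrays limits the precision. In whole liver, fewer cells of a type and less RNA per cell cannot be told apart.

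The deposited signals had trimmed means from 68.9 to 89.1 over the 8 fed arrays, and levels were set on a common scale by quantile normalisation. Hepatocyte markers were high on every array, with a list mean between 11.67 and 11.85, which fits the labelled tissue. Within a strain, late arrays correlated with early arrays at 0.936 to 0.966 in B6 and at 0.970 to 0.982 in D2, across genes. The 2 early B6 arrays correlated with each other at 0.959 and the 2 late B6 arrays at 0.967, and the corresponding values in D2 were 0.977 and 0.972. The B6 array of week 4 was the least like the others of its strain, at 0.936 to 0.961. Markers of macrophages and neutrophils were highest on that array, and genes of cholesterol synthesis were highest on the D2 array of week 12, so lists whose values move without an array are given with and without it.

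No single gene passed the test of late against early weeks over all genes. In limma with strain as a term, 0 of 11059 genes (0%) had a Benjamini-Hochberg adjusted p under 0.05, and the smallest adjusted p was 0.267. At an unadjusted p under 0.05 there were 699 genes (6.32%), of which 358 (3.24%) were higher late and 341 (3.08%) were lower. Both late arrays lay above both early arrays in each strain for 374 genes (3.38%) and below them for 376 genes (3.4%). The median difference over all genes was -0.01, and 102 genes differed by over 1 in either direction. All differences described below are therefore sizes and counts that did not pass the test over all genes, and a missed threshold does not show that a gene kept its level.

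Where the differences among the 8 fed arrays lay can be stated without a test, by splitting each gene's sum of squares into 7 terms of 1 degree of freedom each. Strain took 40.8% of the sum over all genes. Late against early took 11.8%, beside 11.7% for week 21 against week 12 and 9.07% for week 4 against week 1. The part of late against early that differed between the strains took 10.5%, and the corresponding terms for the weeks within a phase took 9.72% for week 4 against week 1 and 6.42% for week 21 against week 12. The sums of squares are scaled for the unequal numbers of arrays in these terms, and the steps given next are not. The step from the early to the late phase was 0.28 as a root mean square over genes (log2), with 4 arrays on each side. It was 0.34 from week 1 to week 4 and 0.39 from week 12 to week 21, with 2 arrays on each side. Fewer arrays leave more noise in a step, so these sizes do not show that the phase step was the smaller.

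**Figure D1:**
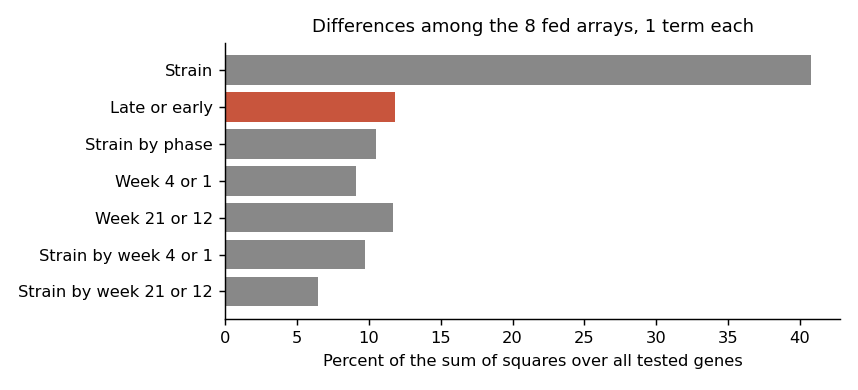
Share of the sum of squares over 11059 genes (horizontal axis, percent) for each of 7 terms among the 8 fed arrays (bars). Strain holds 40.8%, and late or early (coloured bar) holds 11.8%, close to the 11.7% of week 21 or 12.

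The 15 genes with the smallest p in each direction had late and early arrays apart in each strain. They were chosen by that p on the same arrays, so that their being apart is no separate support. Over all genes, late lay above early in each strain for 3.38% and below for 3.4%. A1cf, the RNA-binding partner of the enzyme that edits apolipoprotein B messenger RNA, stood at 6.70 and 6.08 at weeks 1 and 4 in B6 and at 7.60 and 7.47 at weeks 12 and 21. In D2 its levels were 6.38 and 6.58 early and 7.45 and 7.51 late. All 4 late arrays lay above all 4 early arrays, and the week 0 levels, 7.74 in B6 and 7.24 in D2, were near the late ones. The difference was 1.07 ± 0.15 (95% interval 0.74 to 1.41), or 2.11-fold, with a limma adjusted p of 0.267.

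Pdk1, a kinase that inhibits pyruvate dehydrogenase and so holds back the entry of pyruvate into the citric acid cycle, had levels of 8.58, 8.54, 9.68 and 9.29 at weeks 1, 4, 12 and 21 in B6. The D2 levels were 8.46, 8.86, 9.65 and 9.41 in the same order. The groups again did not overlap, the difference was 0.90 ± 0.13 with an adjusted p of 0.267, and the 4 probe sets for Pdk1 had the same sign. Week 0 lay between the phases, at 9.06 in B6 and 9.28 in D2.

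Among genes lower late, Fkbp11, a prolyl isomerase of the endoplasmic reticulum, had 6.47 and 6.29 early and 5.21 and 5.30 late in B6. In D2 it had 6.58 and 6.64 early and 5.39 and 5.86 late. No late array reached an early one, and the week 0 levels of 5.67 and 6.04 were on the late side. Its difference was -1.06 ± 0.14 (95% interval -1.37 to -0.74; adjusted p = 0.267 in limma). Tceal9, of a family related to a transcription elongation factor, was the steadiest within a phase: the 4 early arrays lay between 8.51 and 8.54 and the 4 late arrays between 7.91 and 8.04. Its difference was -0.56 ± 0.08 with the same adjusted p, and week 0 stood at 7.49 in B6 and 8.19 in D2.

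The remaining genes with the smallest p in each direction had adjusted p values of 0.772 in limma and, for those with a mean level of at least 6 in the higher phase, differed as follows. Higher late were Pank1, a pantothenate kinase at the first step of coenzyme A synthesis (0.51 ± 0.11), Atp6v0d2, a subunit of the proton pump of lysosomes (1.13 ± 0.26), and Onecut2, a homeobox factor of liver and bile duct (0.55 ± 0.12). Sucnr1, the receptor for succinate, had a difference of 0.69 ± 0.17, and Hgfac, the protease that activates hepatocyte growth factor, 0.45 ± 0.11. Mcc, Lrrc3, Ttc23, Ntrk2, Lppos and 9130016M20Rik differed by 0.82, 0.56, 0.59, 0.74, 0.43 and 0.65. For 2 further genes, the probe sets disagreed. Dclre1a, a nuclease of DNA crosslink repair, differed by 0.89 by its brightest probe set and by -0.58 when the median of its probe sets was used. Ezr, the membrane-to-actin linker ezrin, differed by 1.28 by the probe set used and by -0.27 by the other.

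Among the genes lower late, Ssr3, a subunit of the complex beside the protein channel of the endoplasmic reticulum, stood at 10.63, 10.53, 10.35 and 9.996 at weeks 1, 4, 12 and 21 in B6. In D2 it stood at 10.11, 10.05, 9.77 and 9.74, and the difference was -0.37 ± 0.09. Late lay below early in each strain, although the B6 array of week 12 lay above both early D2 arrays. Preb, which recruits the coat of vesicles leaving the endoplasmic reticulum, had a difference of -0.52 ± 0.14, and Reep5, a membrane-shaping protein, -0.58 ± 0.15. For Ssr3 and Preb the probe set used is of a type that can detect related transcripts. Another probe set of similar level had a smaller difference, -0.15 for Ssr3 and -0.17 for Preb.

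The other genes lower late were of mixed kinds. Tceal8 differed by -0.83 ± 0.15, Pfn2, an actin-binding profilin, by -0.98 ± 0.22, and Antxr2, a receptor for matrix proteins and for anthrax toxin, by -0.52 ± 0.12. H2az1, the histone variant H2A.Z, differed by -0.32 ± 0.09, and Exosc9, a subunit of the RNA exosome, by -0.51 ± 0.13. Armcx3, Thyn1, Tmem263 and Parp12, an interferon-induced ADP-ribosyltransferase, differed by -0.55, -0.49, -0.41 and -0.52. For 1110008P14Rik, at -0.67 ± 0.17, 1 of 3 probe sets had the opposite sign.

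**Figure D2:**
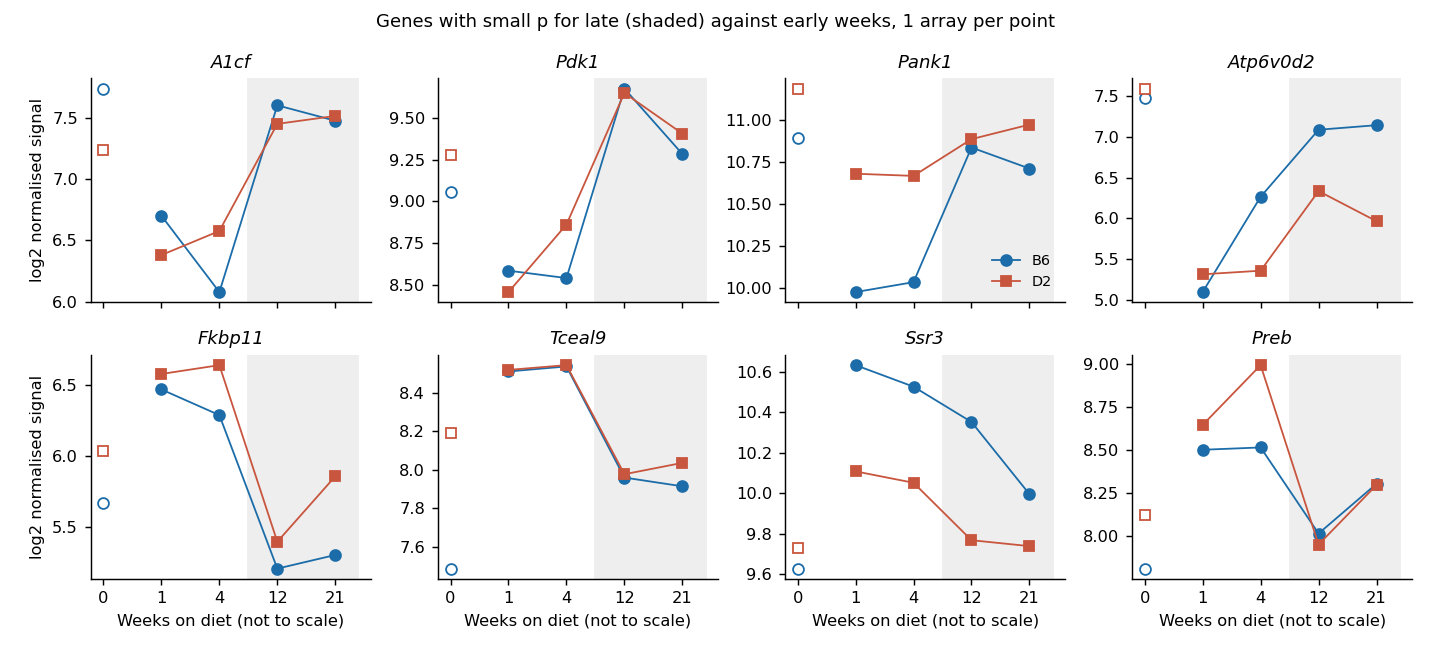
Levels (vertical axis, log2 normalised signal) of 8 genes with small p by weeks on diet (horizontal axis, steps not to scale) in B6 (circles) and D2 (squares), 1 array per point, late weeks shaded and week 0 as open symbols. In A1cf the early arrays lie between 6.08 and 6.70 and the late ones between 7.45 and 7.60, and in Tceal9 the early ones lie between 8.51 and 8.54.

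Late levels were often the ones nearer to week 0. Distance was taken within each strain from its own week 0 array and averaged over both strains. Of the 15 genes named as higher late, 10 had late levels closer than early levels to week 0, and of the 15 lower late, 10 did. The same held for 227 of the 358 genes higher late at an unadjusted p under 0.05 (63.4%) and for 231 of the 341 lower late (67.7%), beside 57.7% of all genes. Since the same fed arrays entered both distances, these shares are a description.

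Interferon-induced genes had lower levels late by their medians, with a larger median in B6. All 18 tested genes of the type I interferon list, which cells switch on when they sense interferon, lay lower late by sign (51.2% of all genes were negative). The median was -0.48, from -1.14 to -0.18, beside -0.01 for all genes, and 7 of 18 had an unadjusted p under 0.05 with a negative sign, beside 3.08% of all genes. The medians were -0.86 in B6 and -0.19 in D2. In D2 the list's mean level was 6.90, 6.17, 6.39 and 6.27 at weeks 1, 4, 12 and 21. Both late D2 arrays thus lay below that of week 1 and above that of week 4. Without the B6 array of week 4 the median was -0.34, with 17 of 18 negative, and without it and the D2 array of week 12 it was -0.37. The count of 7 was 2 without the B6 array of week 4, 3 without the B6 array of week 21 or the D2 array of week 1, 4 without the B6 array of week 12 and 15 without the D2 array of week 4.

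Bst2, or tetherin, which holds budding viruses at the cell surface, had 10.22 and 10.31 early and 9.40 and 9.35 late in B6. In D2 it had 9.42 and 9.64 early and 8.79 and 9.64 late. The phases were apart in B6, with a difference of -0.89, while in D2 the late array of week 21 was as high as the early ones. The pooled difference was -0.61 ± 0.19, with a limma adjusted p of 0.772. Usp18, a protease that damps interferon signalling, was lower late in both strains without overlap. Its levels were 6.89, 7.63, 6.37 and 6.42 in B6 and 8.33, 6.71, 6.55 and 6.39 in D2, with a difference of -0.96 ± 0.32. Ifit2, which binds foreign RNA, differed by -1.14 ± 0.41, Ifih1, a sensor of viral RNA, by -0.42 ± 0.15, and Irf7, the transcription factor that amplifies the response, by -0.49.

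Promoters of these genes are known for the interferon-stimulated response element, whose core was searched here as GAAA, any pair of bases and GAAA again, on both strands in the 250 bases before the start of each gene in RefSeq's GRCm38.p6 annotation. Of the 18 list genes, 12 matched a promoter in that table and 6 of these held the motif, beside 978 of 32851 promoters (2.98%) and 288 of the 8997 tested genes with a promoter (3.2%). Interferon genes are shown since they had the most genes of any list at an unadjusted p under 0.05 in 1 direction, a choice made after the values were seen because no list had a called gene. The stretches below belong to the 4 genes with a match and the smallest p, read along each gene's own strand, with up to 30 bases on either side of the matches. Capitals mark the matches, which are merged where they overlap, and a match on the reverse strand appears as TTTC, a pair of bases and TTTC. Bst2 lies at chr8:71537557-71537632 on the minus strand, Ifit1 at chr19:34640755-34640843 on the plus strand, Rsad2 at chr12:26456533-26456602 on the minus strand and Oas1a at chr5:120907526-120907575 on the minus strand.
Bst2: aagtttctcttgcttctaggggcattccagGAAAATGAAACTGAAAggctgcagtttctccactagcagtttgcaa
Ifit1: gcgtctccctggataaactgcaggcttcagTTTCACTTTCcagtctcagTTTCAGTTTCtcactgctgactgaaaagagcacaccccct
Rsad2: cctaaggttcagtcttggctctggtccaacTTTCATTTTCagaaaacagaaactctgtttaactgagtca
Oas1a: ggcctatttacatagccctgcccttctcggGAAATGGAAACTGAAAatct
The late minus early differences of these 4 genes were -0.61, -0.82, -0.46 and -0.47 in that order. A match is a description of the letters and not a site in use.

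The interferon-induced GTPases, which attack the vacuoles of intracellular microbes and answer mainly to interferon gamma, had medians of opposite sign in the strains. All 9 tested members had a negative pooled difference with a median of -0.77. Of the 9, 1 had an unadjusted p under 0.05, beside 3.08% of all genes lower late. The median was -1.36 in B6, where 9 of 9 were negative, and 0.14 in D2, where 8 of 9 were positive. Igtp had 9.56 and 10.86 early and 8.51 and 8.21 late in B6, and 8.92 and 8.73 early and 9.44 and 8.63 late in D2. Ifi47 had 8.06 and 9.78 early and 6.44 and 6.88 late in B6, and between 7.19 and 7.58 on the 4 D2 arrays. The list lay highest on the B6 array of week 4, and without that array the median was -0.23, still with 9 of 9 negative. The count of 1 was 6 without the D2 array of week 12. It was 0 without the B6 array of week 4, 12 or 21 or the D2 array of week 1 or 21.

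Macrophage and Kupffer cell markers lay lower late in B6 by their median. All 24 had a negative pooled difference with a median of -0.51. Of the 24, 2 had an unadjusted p under 0.05, beside 3.08% of all genes lower late. The B6 median was -0.996 with 24 of 24 negative, and the D2 median was 0.01 with 11 of 24 negative. Marco, a scavenger receptor of macrophages, had 7.75 and 10.16 early and 5.04 and 6.82 late in B6, and 6.35 and 5.10 early and 4.32 and 6.30 late in D2. Timd4, a receptor of resident Kupffer cells, had 6.52 and 6.84 early and 3.69 and 5.05 late in B6, and its D2 levels lay between 5.03 and 5.91. The mean level of the list was 8.11, 9.42, 6.99 and 8.24 at weeks 1, 4, 12 and 21 in B6, so that week 21 lay above week 1. Without the B6 array of week 4 the median was -0.12 with 20 of 24 negative, and without the B6 array of week 12 it was -0.13 with 19 of 24 negative. It was -0.05 without the B6 array of week 4 and the D2 array of week 12, with 16 of 24 negative. The count of 2 ranged from 0 to 5 with single arrays left out, with 0 without either of the B6 arrays of weeks 4 and 12 or the D2 array of week 1.

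Chemokines and genes of antigen presentation lay highest on the B6 array of week 4. For the 14 chemokines and receptors, which guide leukocytes, the median was -0.52 with 11 negative, and it was 0.09 without that array, with 6 negative. Over all 8 fed arrays 2 of the 14 were lower late at an unadjusted p under 0.05, beside 3.08% of all genes. Without the B6 array of week 4, 0 were lower and 2 were higher at that p. The count lower late was 0 without the B6 array of week 12, and 3 without that of week 21 or the D2 array of week 4. The chemokine list's median was -0.24 without the B6 array of week 12, and over all arrays it was -1.08 in B6 and 0.24 in D2. Cxcl13, which attracts B cells, differed by -1.17 ± 0.47 and Ccl9 by -0.35 ± 0.13. For the 7 genes of MHC class II, which presents antigen to helper T cells, the median was -0.42, with -1.33 in B6, where 7 of 7 were negative, and 0.40 in D2, where 7 of 7 were positive. The pooled median was 0.27 without the B6 array of week 4, and without that of week 12 it was near 0 with 3 positive and 4 negative. Cd74, the chaperone of class II, stood at 9.87, 12.11, 9.05 and 10.24 in B6 and between 8.32 and 8.99 in D2. The 12 genes of MHC class I loading had a median of -0.21 with 11 negative, and -0.39 in B6 and 0.07 in D2. That median was -0.02 without the B6 array of week 4, with 6 of 12 negative.

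Acute-phase genes, which the liver makes in inflammation, showed the same array apart. Of 24 genes 20 were negative, with a median of -0.21. At an unadjusted p under 0.05 there were 2, both lower late, beside 3.08% of all genes. That count was 0 without the B6 array of week 4, 1 without that of week 12, and 4 without the D2 array of week 4 or 21. Saa4, a constitutive serum amyloid A, differed by -0.38 ± 0.14 and lay lower late without overlap within each strain, and Lbp, which binds bacterial lipopolysaccharide, by -0.58 ± 0.22. Saa2 stood at 9.04, 12.13, 6.99 and 9.16 in B6 and 8.42, 7.15, 7.43 and 8.199 in D2, so that its late and early levels overlapped in both strains. Lcn2, an iron-trapping acute-phase protein, spread from 6.29 to 12.14 among the B6 arrays. The list's median was -0.05 without the B6 array of week 4 and -0.07 without that of week 12.

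Markers of other blood cells were mostly below the level needed for testing. Of 12 neutrophil markers 4 were tested, and their mean was 7.25 on the B6 array of week 4 against 4.13 to 5.13 on the other 7 fed arrays. Their median difference was -0.66, and 0.10 without that array. Of 20 T and natural killer cell markers 7 were tested, with mean levels from 3.53 to 4.68, and of 17 B and plasma cell markers 8 were tested, from 4.02 to 5.73. In the B and plasma cell list 7 of 8 were positive with a median of 0.47, and Igha, the constant region of immunoglobulin A, differed by 0.46 ± 0.19. The part of changing cell numbers in the lists of interferon, chemokine and antigen presentation genes was not tested.

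**Figure D3:**
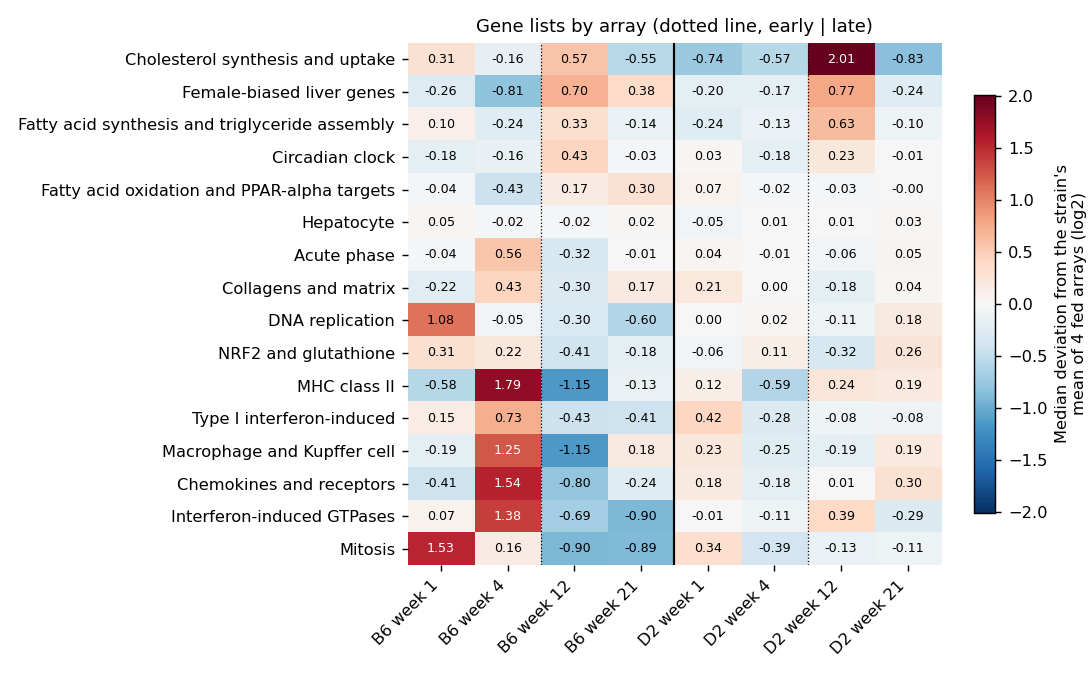
Median deviation of each gene list (rows) from the mean of the 4 fed arrays of the same strain (colour and printed value, log2) on the 8 fed arrays (columns). The B6 array of week 4 holds 1.79 for MHC class II and 1.25 for macrophage markers, the B6 array of week 1 holds 1.53 for mitosis, and the D2 array of week 12 holds 2.01 for cholesterol synthesis.

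Matrix genes had negative medians in both strains. Of 22 collagen and matrix genes 16 were negative, with a median of -0.23, -0.26 in B6 and -0.20 in D2, and 4 had an unadjusted p under 0.05, all lower late, beside 3.08% of all genes. Those 4, Sparc, Col4a2, Col3a1 and Col4a1, were the ones without overlap within each strain, beside 3.4% of all genes. The number at that p was 2 without the B6 array of week 4, the B6 array of week 12 or the D2 array of week 12. Sparc, a matrix glycoprotein that binds collagen, had 8.90 and 9.22 early and 7.74 and 8.24 late in B6, and 8.37 and 8.65 early and 8.004 and 8.34 late in D2. Its difference was -0.70 ± 0.19, and Col3a1, a fibrillar collagen, differed by -0.87 ± 0.35. Stellate cell markers, which include the main collagen makers of liver, had a median of -0.06 over 16 genes and list means from 5.65 to 6.55. The matrix median was -0.11, -0.15 and -0.14 without the B6 array of week 4, the B6 array of week 12 or the D2 array of week 12, and -0.02 without the first and last of these.

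Keratins 8 and 18, the intermediate filament pair of hepatocytes and duct cells, differed by -0.55 ± 0.21 (Krt8) and -0.58 ± 0.17 (Krt18). Krt18 stood at 10.34, 10.20, 9.12 and 9.69 in B6 and at 9.81, 9.60, 9.24 and 9.55 in D2, lower late in each strain with a narrow gap in D2. Prom1, a marker of duct and progenitor cells, had 8.50 and 7.74 early and 5.35 and 6.73 late in B6, and 6.41 and 7.17 early and 5.56 and 6.65 late in D2, with a difference of -1.38 ± 0.43. Of the 14 markers of duct cells 6 were tested, and 3 of these were positive, among them Epcam, a defining marker of duct cells, which lay between 1.70 and 4.76 near the low end of the scale.

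Cell cycle genes lay highest on the B6 array of week 1. All 10 tested genes of mitosis had a negative pooled difference, with a median of -1.01 and 3 at an unadjusted p under 0.05, beside 3.08% of all genes lower late. Without the B6 array of week 1, 12 or 21 that count was 0, without the D2 array of week 1 it was 1, and without the D2 array of week 4 or 21 it was 8 or 5. The B6 median was -1.72 and the D2 median -0.09. Mki67, the Ki-67 marker of dividing cells, stood at 6.55, 5.82, 4.11 and 3.88 in B6 and between 3.89 and 4.58 in D2, and week 0 in B6 was 3.55. Top2a, which untangles DNA in dividing cells, stood at 6.51, 5.31, 3.99 and 3.51 in B6 and between 3.32 and 3.95 in D2.

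The genes of DNA replication had the same form with a smaller median, -0.36 over 18 genes, -0.78 in B6 and 0.05 in D2. Of these 3 had an unadjusted p under 0.05, all lower late, beside 3.08% of all genes. They were Mcm2 and Mcm6, subunits of the replicative helicase, and Cdt1, which helps to load it onto DNA. Mcm5, of the same helicase, had 8.10 and 5.90 early and 4.38 and 3.79 late in B6 and stayed between 4.52 and 5.26 in D2. The medians were -0.57 for mitosis and -0.05 for DNA replication without the B6 array of week 1. The mean of the mitosis list was 6.41 and 4.99 at weeks 1 and 4 in B6 and 3.93 and 3.92 at weeks 12 and 21, beside 4.22 at week 0.

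Antioxidant genes under NRF2 and glutathione transferases lay lower late by their pooled median. The difference was negative for all 17, and the median was -0.41, -0.68 in B6 and -0.06 in D2. Of the 17, 4 had an unadjusted p under 0.05, beside 3.08% of all genes lower late. Gstm3, a glutathione transferase, had 12.39 and 12.10 early and 9.22 and 11.23 late in B6, and 9.40 and 10.80 early and 8.15 and 9.69 late in D2. The phases were apart in B6 and overlapped in D2, with a difference of -1.60 ± 0.52. Srxn1, which restores oxidised peroxiredoxins, differed by -0.77 ± 0.25, Gstp1 by -0.41 ± 0.13 and Gstm4 by -0.60 ± 0.21. The list's median was -0.24 without the B6 array of week 12, -0.31 without that of week 4 and -0.29 without the D2 array of week 12. The count of 4 was 9 without the D2 array of week 1 and 13 without that of week 21. It was 3 without the B6 array of week 1, 4 or 12, and 1 without both arrays of week 12. In D2 the list's mean level was 8.89, 9.11, 8.60 and 9.22 over weeks 1, 4, 12 and 21. Week 21 thus lay above both early arrays there. The near-identical sequences of glutathione transferases may share probes, and 1 of the Gstm3 probe sets is of a type that can detect related transcripts. Cyp2c55, a cytochrome P450 of the drug-metabolising list, differed by -1.88 ± 0.60, with levels of 9.87, 7.46, 5.68 and 6.28 in B6 and 5.29, 6.83, 4.52 and 5.45 in D2.

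Genes known to be higher in female than in male liver had higher levels late by their pooled median. All 10 tested members of the female-biased list had a positive difference (48.8% of all genes were positive), with a median of 0.61, and 6 had an unadjusted p under 0.05 with a positive sign, beside 3.24% of all genes. The medians were 1.08 in B6 and 0.38 in D2. In D2 the mean level of the list was 8.44, 8.39, 9.51 and 8.09 over weeks 1, 4, 12 and 21, so that week 21 lay below both early arrays. Cux2, the repressor that shuts male genes in female liver, stood at 5.502, 5.14, 7.23 and 7.10 in B6 and at 6.44, 7.36, 7.56 and 6.92 in D2. It was apart by phase in B6 and overlapped in D2, with a difference of 1.09 ± 0.34. Abcd2, a peroxisomal transporter of fatty acids, had 6.39 and 5.75 early and 7.66 and 6.76 late in B6, and 6.69 and 7.35 early and 8.29 and 7.46 late in D2, with no overlap within a strain and a difference of 0.999 ± 0.28. Cyp2b13, a female-biased cytochrome P450, differed by 0.62 ± 0.17. Sult3a1, a sulfotransferase, stood at 0.79, 2.60, 7.09 and 4.50 in B6, the lowest of these near the floor of the scale, and between 10.78 and 12.51 in D2. Of the 7 male-biased genes 6 were negative, beside 51.2% of all genes, with a median of -0.25. Of the 7, 2 had an unadjusted p under 0.05, C6, a complement component, and Cyp2d9, beside 3.08% of all genes lower late. The male-biased median was -0.62 without the B6 array of week 12, with 4 genes at that p. It was -0.04 without the B6 array of week 21, with 1 gene. Without the D2 array of week 12 the median of the female-biased list was 0.47, and without the D2 array of week 21 it was 0.97. Without the D2 array of week 12 and the B6 array of week 4 it was 0.30, with 7 of 10 positive. The count of 6 was 3 without the B6 array of week 4 or 12 or the D2 array of week 12, and 1 without both arrays of week 12.

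Genes of fatty acid oxidation had a positive median in B6 and one near 0 in D2. Of 26 genes of oxidation and PPAR-alpha targets 25 had a positive pooled difference, with a median of 0.17. Of the 26, 6 were higher late at an unadjusted p under 0.05, beside 3.24% of all genes. In B6 the median was 0.52, with all 26 positive and 16 at an unadjusted p under 0.05, beside 5.88% of all genes with a positive sign there. In D2 the median was -0.05, with 8 positive and 1 at that p with a positive sign, beside 1.32% of all genes. The difference between the strains had an unadjusted p under 0.05 for 11 of the 26, beside 6.21% of all genes, and none passed after adjustment. The B6 array of week 4 held the lowest median of the list, -0.43 from its strain's mean, and without it 19 of 26 were positive with a pooled median of 0.05. The pooled count of 6 was 3 without the B6 array of week 12, and 4 without the B6 array of week 1, 4 or 21.

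Acot3, a peroxisomal thioesterase that frees fatty acids from coenzyme A, had 9.49 and 8.36 early and 10.59 and 10.36 late in B6. In D2 it had 9.70 and 10.17 early and 10.67 and 10.51 late, so that late lay above early in both strains, with a difference of 1.10 ± 0.27. Cd36, the fatty acid translocase, had 8.27 and 9.18 early and 9.07 and 9.82 late in B6 and 7.43 and 7.30 early and 8.44 and 8.02 late in D2. It overlapped in B6, and its difference was 0.79 ± 0.23. Ppara, the receptor itself, had 9.21 and 9.08 early and 10.44 and 9.76 late in B6 and lay between 10.42 and 10.54 on the D2 arrays. Acot1, Angptl4 and Pdk4, which are PPAR-alpha targets, differed by 1.57, 1.09 and 1.34 in B6 and by -0.57, -0.37 and -0.06 in D2.

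Genes of lipid droplets and lipid synthesis had positive pooled medians. Of 13 lipid droplet genes 10 were positive with a pooled median of 0.14, but the median was 0.51 in B6 and -0.01 in D2, where 8 of 13 were negative. Without the B6 array of week 4 the pooled median was 0.03 with 0 genes at an unadjusted p under 0.05, without that of week 12 there were again 0, and without that of week 21 the median was 0.01. Over all 8 arrays 3 had an unadjusted p under 0.05, beside 3.24% of all genes higher late: G0s2, the inhibitor of the main triglyceride lipase (0.81 ± 0.29), and Fitm1 and Fitm2, which bud droplets from the endoplasmic reticulum (1.24 ± 0.45 and 0.57 ± 0.22). Of 20 genes of fatty acid synthesis and triglyceride assembly 19 were positive with a median of 0.37, 0.18 in B6 and 0.48 in D2, and 3 had an unadjusted p under 0.05. These were Acaca, the acetyl-CoA carboxylase that commits carbon to fatty acid synthesis (0.44 ± 0.17), Gpam, the first acyltransferase of triglyceride synthesis (0.37 ± 0.14), and Elovl5, an elongase of polyunsaturated fatty acids (0.28 ± 0.11). The D2 array of week 12 held the highest median of the list, and without it the pooled median was 0.15 with 16 of 20 positive. Without both week 12 arrays it was 0.03 with 10 of 20 positive, and without the B6 array of week 4 and the D2 array of week 12 it was 0.07 with 12 of 20. The count of 3 was 0 higher late without the B6 array of week 4 or 12 or the D2 array of week 12.

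The higher late level of cholesterol synthesis genes rested on 1 array. All 20 genes of synthesis and uptake had a positive pooled difference with a median of 0.62, yet 0 of 20 had an unadjusted p under 0.05. In D2 the list's mean level was 6.73, 6.87, 9.49 and 6.62 over weeks 1, 4, 12 and 21, and in B6 it was 7.26, 6.75, 7.45 and 6.38. The D2 array of week 12 was the 1 high array, above both week 0 arrays at 8.38 and 8.72, while the D2 array of week 21 lay with the early ones. Sqle, the squalene epoxidase, stood at 9.27 on that array and between 3.80 and 4.997 on the other 7. Lss, which closes the sterol rings, stood at 8.72 there and between 5.37 and 6.68 elsewhere. Without that array the median was -0.17 with 15 of 20 negative.

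The lists of sterol efflux and bile acid synthesis had small pooled medians. The 10 LXR targets and efflux genes had a median of -0.13 with 8 negative and 0 at an unadjusted p under 0.05, and Abcg5 and Abca1, which pump sterol out of cells, differed by -0.31 ± 0.20 and -0.23 ± 0.18. The 16 genes of bile acid synthesis had a median of 0.02. Of the 16, 3 were higher late at an unadjusted p under 0.05, beside 3.24% of all genes. They were Akr1d1 (0.30 ± 0.10), Slc27a5 (0.19 ± 0.07) and Nr1h4, the bile acid receptor FXR (0.43 ± 0.19). The other probe set of Akr1d1, of similar level, differed by 0.05. Nr1h4 differed by 0.88 in B6 and by -0.03 in D2. Cyp7a1, the rate-limiting enzyme, stood at 5.98, 7.46, 9.73 and 8.15 in B6 and at 9.71, 10.28, 10.32 and 9.76 in D2. It was apart by phase in B6, with a difference of 2.22 ± 0.60, and overlapped in D2, with 0.04 ± 0.60. Its pooled difference was 1.13 ± 0.54, and the adjusted p of the strain difference was 0.781 in limma. Slc10a1, the uptake carrier of bile acids, differed by 0.75 ± 0.15 in B6 and -0.08 ± 0.15 in D2, and Abcb11, the export pump, by -0.84 ± 0.28 and -0.17 ± 0.28.

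Several further liver functions had pooled medians near that of all genes. The medians were 0.00 for 19 apolipoprotein and lipoprotein genes, 0.01 for 23 genes of the respiratory chain, 0.02 for 16 genes of the urea cycle and amino acid breakdown, 0.02 for 11 hepatocyte markers and -0.10 for 23 genes of the unfolded protein response. For the urea cycle list the median was 0.20 in B6, with 12 of 16 positive, and -0.22 in D2, with 14 of 16 negative. In the unfolded protein response list 0 of 23 had an unadjusted p under 0.05 in the pooled fit, while in B6 7 of 23 did with a negative sign, beside 5.21% of all genes. Pdia3, a disulfide isomerase that folds glycoproteins, differed by -0.71 ± 0.13 in B6 and 0.03 ± 0.13 in D2. Clock genes had a median of 0.26 over 17 genes, 0.14 without the B6 array of week 1 and 0.09 without that of week 12, with Hlf, a clock-driven transcription factor, at 0.52 ± 0.21 and Per3 at 0.55 ± 0.24, and the hour of tissue collection is not in the labels. Rdh16, a retinol dehydrogenase, differed by 0.93 ± 0.24 and Bmp6, the signal that raises hepcidin when iron is plentiful, by 0.59 ± 0.16, and both lay higher late in each strain without overlap. Socs2, a feedback inhibitor of growth hormone signalling, differed by 0.61 ± 0.20, without overlap within a strain.

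**Figure D4:**
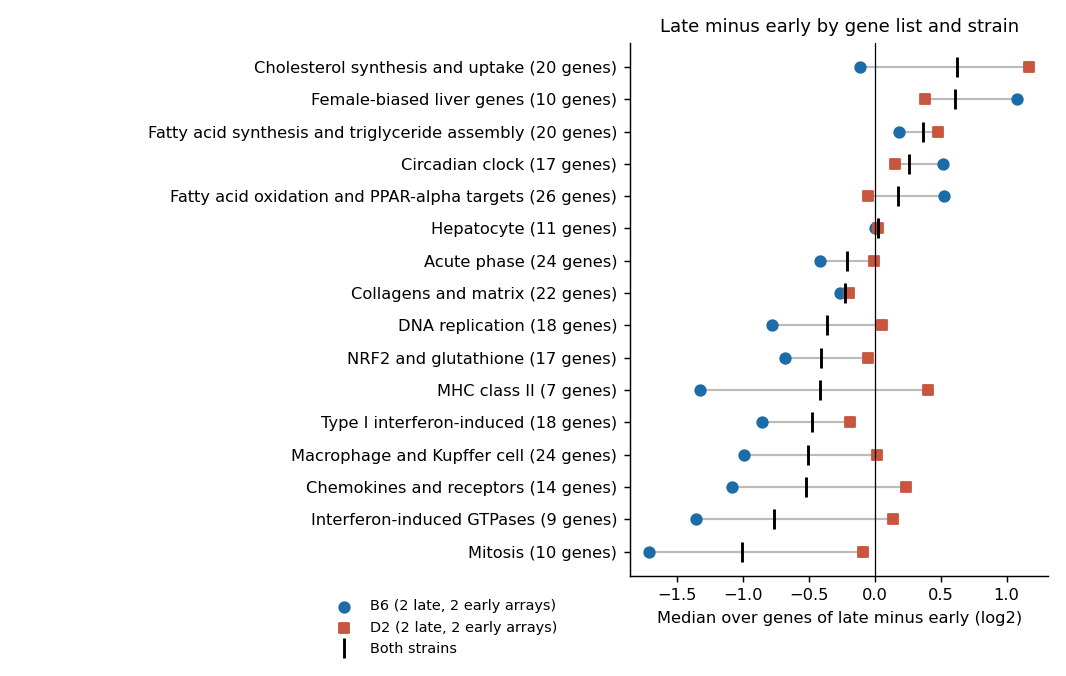
Median over genes of late minus early (horizontal axis, log2) for 16 gene lists (rows) in B6 (circles), in D2 (squares) and in both strains together (bars). The mitosis list lies at -1.72 in B6 and -0.09 in D2, macrophage markers at -0.996 and 0.01, and the fatty acid oxidation list at 0.52 and -0.05.

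Late minus early differences were larger in B6 than in D2, and the B6 arrays also correlated less within a phase. The 2 early arrays correlated at 0.959 in B6 and 0.977 in D2, and the 2 late arrays at 0.967 and 0.972. The fit gave each gene 1 spread for both strains. Where B6 arrays vary more, that makes B6 p-values too small and D2 p-values too large. The counts below therefore do not separate a phase difference from spread between weeks. In B6 0 of 11059 genes (0%) passed at an adjusted p under 0.05 in limma, the smallest being 0.0954, and 1226 (11.1%) had an unadjusted p under 0.05. In D2 0 genes (0%) passed, the smallest adjusted p was 1, and 294 genes (2.66%) had an unadjusted p under 0.05. Differences over 1 in size numbered 438 in B6 and 159 in D2. Low p-values were more frequent than an equal share in B6 and less frequent in D2 after quantile scaling. With arrays scaled as deposited, where the median of all genes was -0.20 in B6 and 0.23 in D2, the counts at that p were 1754 (15.9%) in B6 and 1102 (9.96%) in D2, more than an equal share in both. With single arrays left out the D2 count ranged from 197 to 479, the highest without the D2 array of week 4. Whether the strains differed was tested gene by gene, and 0 genes (0%) passed, with a smallest adjusted p of 0.748 and 687 genes (6.21%) at an unadjusted p under 0.05. Of these the difference was more positive in D2 for 270 (2.44%) and in B6 for 417 (3.77%), and no gene can be called particular to a strain. As deposited, the strain difference had 2199 genes (19.9%) at that p and a smallest adjusted p of 0.216, and with single arrays left out the count ranged from 388, without the D2 array of week 1, to 1052, without the B6 array of week 1.

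**Figure D5:**
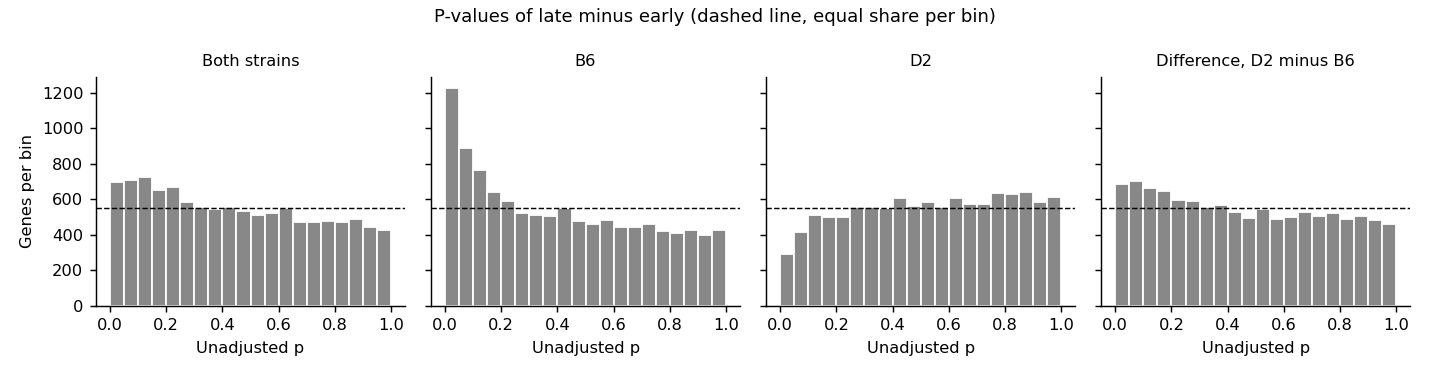
Number of genes (vertical axis) in bins of 0.05 of the unadjusted p (horizontal axis) for late minus early in both strains, in B6, in D2 and for the difference between the strains; the dashed line is an equal share per bin. The first bin holds 1226 genes in B6 and 294 in D2.

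The gene nearest to passing in B6 was Ttll11, of a family that adds glutamate chains to tubulin, at 2.42 and 2.45 early and 4.99 and 5.05 late in B6 and between 4.70 and 5.23 in D2. Its early B6 levels were at the low end of the scale, and it lies below the level required of named genes. The B6 difference was 2.59 ± 0.27 with an adjusted p of 0.0954. Among brighter genes, Prox1os, an antisense transcript of the liver factor gene Prox1, had 5.75 and 5.68 early and 7.09 and 7.16 late in B6, with a difference of 1.41 ± 0.15 and the same adjusted p. Its D2 levels lay between 6.83 and 7.03, and the phases overlapped.

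Others higher late in B6 with the smallest p were Bnip3, a mitochondrial protein of autophagy (0.87 ± 0.11), Pex11a, a PPAR-alpha target that divides peroxisomes (1.196 ± 0.18), Rab30 (1.601 ± 0.23), Gpr135 (1.56 ± 0.23) and Pank1 (0.76 ± 0.10). Lower late in B6 were Prg4, a lubricant glycoprotein (-0.87 ± 0.13), the profilins Pfn1 (-0.88 ± 0.14) and Pfn2 (-1.44 ± 0.23), Dck, deoxycytidine kinase of nucleotide salvage (-1.04 ± 0.17), Mki67 (-2.19 ± 0.36) and Cks1b, a partner of cyclin-dependent kinases (-1.35 ± 0.22). The limma adjusted p was 0.219 for Bnip3 and Pank1 and 0.249 for each of the others in this paragraph.

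In D2 the genes with the smallest p higher late were 2510039O18Rik (1.18 ± 0.19), Slc26a1, a sulfate and oxalate exchanger (1.02 ± 0.19), Mme, the peptidase neprilysin (2.20 ± 0.47), and A1cf and Pdk1. Mme had 4.15 and 5.49 early and 6.72 and 7.31 late in D2, and 8.37, 7.47, 8.41 and 8.07 in B6, so that the D2 levels lay below the B6 levels in every week. Lower late in D2 were Bpgm, which makes bisphosphoglycerate (-1.16 ± 0.25), the imprinted gene Peg3 (-1.003 ± 0.24), Wdfy1 (-0.70 ± 0.15), Tdrp (-0.67 ± 0.17), Fkbp11 and Tceal9. For Snrnp40, a subunit of the spliceosome at 0.76 ± 0.18, and for Wdfy1 the other probe sets did not all share the sign. For 2510039O18Rik the probe set used is of a type that can detect related transcripts. It differed by 0.67 over both strains, while the other probe set, of similar level, differed by 0.05.

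The smallest p for a difference between strains belonged to Prox1os, with -1.45 for D2 minus B6. Lacc1, a macrophage enzyme, differed by -1.09 ± 0.19 in B6 and 0.50 ± 0.19 in D2, and Cks1b and Prg4 by 1.48 and 0.96 for D2 minus B6. Bnip3, Angptl4, a secreted inhibitor of lipoprotein lipase, Sorbs3 and Zkscan1 had a more positive difference in B6 than in D2, at -0.88, -1.46, -1.52 and -1.03 for D2 minus B6. The limma adjusted p was 0.748 for all 8 of these genes.

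The week 1 and week 4 arrays of B6 differed from each other, and the B6 result depended on which was kept. Without the B6 array of week 1, so that week 4 alone stood for the early phase and was assumed to vary like the other groups, 61 of 11059 genes (0.552%) had an adjusted p under 0.05 in B6, 52 lower late and 9 higher. Among those lower late were 7 of 9 interferon-induced GTPases, 4 of 12 genes of MHC class I loading and 3 of 14 chemokines and receptors. Markers of leukocytes were lower with them: 2 of 4 neutrophil markers (S100a9 and Ngp), 2 of 24 macrophage markers (Cd14 and Aif1) and Ptprc, the common leukocyte antigen, and their part in the result was not tested. The called genes included Cxcl9 (-4.47 ± 0.45) and Cxcl10 (-3.44 ± 0.44), which attract T cells, and Gbp2, a guanylate-binding GTPase (-3.82 ± 0.20). The 9 higher late included A1cf (1.46 ± 0.18), Acot1 (2.27 ± 0.28), Acot3 (2.11 ± 0.22), Retsat, a retinol saturase (1.35 ± 0.17), and Ech1, an isomerase of fatty acid oxidation (0.80 ± 0.11). Without the B6 array of week 4 instead, 0 genes passed in B6 in limma, and 1092 had an unadjusted p under 0.05. These genes were chosen after their values were seen, and A1cf and Acot3 are the 2 among those given here that also lay apart by phase in both strains over all 8 arrays.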

How the data were processed

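Liver RNA pools of 5 mice were measured on 10 Affymetrix arrays, and 8 were compared. The deposited values are linear probe set intensities from GCOS, per the submitters' processing notes, and the version and summary settings are not given in the sources used here. Of 45101 probe sets, 64 controls, 932 with several gene symbols and 9160 with none were left out. The intensities were quantile normalised over all 10 arrays, and log2 was taken after adding 1.05, the 10th percentile of the deposited values. Gene symbols came from the platform annotation and were updated through RefSeq. Each of 18193 genes was read by its brightest probe set, and 11059 genes whose mean exceeded 3.74 (the 50th percentile over probe sets) were tested. Late minus early was fitted with limma 3.58.1 in R 4.3.3 (empirical Bayes with a trend, Benjamini-Hochberg adjustment), with strain as a term and 5 residual degrees of freedom. The fits within each strain and of their difference used the 4 strain and phase groups, with 4 residual degrees of freedom. The statistics were tested on simulated data. No label says that weeks are replicates of a phase, so p-values measure only the spread between these arrays.

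The 49 gene lists hold 823 entries, of which 79 had no named probe set and 648 were tested, and 44 lists had at least 5 tested genes. The members and lists were chosen with earlier results of these data known. Genes were named if among the 15 smallest p in each direction, or among the 6 in each direction within a strain or the 8 for the strain difference, with a mean of at least 6 in the higher phase. Up to 4 genes of each list with the smallest p and a fixed set of liver genes were also named. Acot1, Aif1, Cd14, Cxcl9, Cxcl10, Ech1, Gbp2, Ifit1, Irf7, Oas1a, Pdk4, Ppara, Ptprc, Rsad2, Sult3a1 and Ttll11 were outside that rule and were chosen after their values were seen. Alternatives covered the constant, a floor, the scaling, the filter, the probe set rule, the empirical Bayes settings, each array left out, each week left out, week as a random block and a slope on week.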

Additional observations from a re-analysis of the deposited data

Results flagged for a closer look

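For 5 lists and 12 named genes, both late arrays lay on 1 side of both early arrays in B6 and on the opposite side in D2, and the values here are late minus early for D2 minus B6. For the list means this was so for chemokines (1.66; -1.39 in B6 and 0.27 in D2), MHC class I loading (0.66), T and natural killer cell markers (0.67), bile acid synthesis (-0.57) and apolipoproteins (-0.13), and it was not tested at the level of a list. For single genes it was so for Cks1b (1.48), Snrnp40 (0.91), Tdrp (-1.12), Lacc1 (1.595), Sorbs3 (-1.52), Zkscan1 (-1.03), Nr1h4 (-0.91), Psmb9 (1.70), Ifi47 (2.47), Npc1 (-0.69), Retsat (-1.17) and Prss2 (-2.27). The limma adjusted p of the difference between the strains was 0.748 for each of these 12 genes.

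Dixon's ratio set 1 array apart from the other 3 of its phase in 27 of 588 groups of 4 arrays (4.59%). These covered 45 lists and 249 genes, and chance gives about 1 in 20 for 4 arrays of 1 kind. Each group held 2 arrays of each strain, so a strain difference can hide or shape a flag. That rate is therefore only a rough guide. Levels are on the log2 scale. On the B6 array of week 4 these were the means of the lists of neutrophil markers (7.25), MHC class I loading (9.75), cell death effectors (7.41) and cytochrome P450 genes (10.21), and Tap1 (8.13), Iigp1 (12.05), Bmp6 (4.70), S100a8 (8.16), Jchain (5.47) and Tek (5.47). The B6 array of week 1 was apart for Cdt1 (7.37), Sesn2 (5.89) and Cry1 (6.88), that of week 12 for Cyp7b1 (9.33), and that of week 21 for Cd74 (10.24), Car3 (11.25) and Cdkn1a (8.78). In D2 the array of week 1 was apart for C6 (8.02) and Cd8a (2.76). That of week 4 was apart for the growth hormone list (8.45), Ctsk (1.55), Hgd (11.39) and Epcam (1.70). The D2 array of week 12 was apart for Rab30 (7.50) and Irgm1 (7.75), and that of week 21 for Apoa5 (12.63) and Lamp2 (10.95).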

How the results depend on the processing

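The count of 0 genes for late minus early held under all 28 settings tried, with 3.45% to 9.05% of genes at an unadjusted p under 0.05 in limma and a smallest adjusted p between 0.126 and 0.999. With each array left out in turn, the counts at an adjusted p under 0.05 ranged from 0 to 0 for late minus early, from 0 to 61 in B6, from 0 to 1 in D2 and from 0 to 1 for the strain difference. The 61 came without the B6 array of week 1. The 1 gene in D2 was Hmgcs1 (2.94 ± 0.19, limma adjusted p = 0.0211) without the array of week 21, and the 1 for the strain difference was Gbp2 (4.34 ± 0.26, limma adjusted p = 0.0134) without the B6 array of week 1. In B6, 1 gene, Ttll11, passed when the variance prior had no trend (limma adjusted p = 0.0210). Dclre1a reversed to -0.58 with the median of its probe sets. The cause of these changes was not tested. List medians moved past the spread between replicates for hepatocyte markers (0.10 as deposited), and for the female-biased and clock lists (1.12 and 0.51 without both week 21 arrays). Chemokines (-0.95 to 0.09), MHC class II (-0.89 to 0.27), cholesterol synthesis (-0.47 to 1.41) and hepatocyte markers (-0.01 to 0.10) changed sign under some settings. The mitosis list had no tested gene under the strictest filter and was not computed there. As deposited, the median of all genes was -0.20 in B6 and 0.23 in D2, so within-strain differences are relative to quantile scaling. Without both arrays that stood apart, a setting chosen after seeing the data, 554 genes had an unadjusted p under 0.05. The labels give no late array a partner among the early ones, so late and early were not paired. They do join a B6 and a D2 array at each week. With week as a random block the correlation was -0.00725, and 716 genes had an unadjusted p under 0.05 in limma. Probe sets near the low end of the scale limit what can be read.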
